A study of Homo sapiens with 9 samples.

Results

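The urea cycle turns ammonia and the nitrogen of aspartate into urea, and the complete cycle is a mark of the hepatocyte. This section describes its 9 genes in Huh7, an established line of human hepatocellular carcinoma cells. They are the 6 enzymes CPS1, OTC, ASS1, ASL, ARG1 and ARG2, the enzyme NAGS, which makes the activator of CPS1, and the mitochondrial carriers SLC25A13 and SLC25A15. The genes were found by symbol in the deposited count table, where they made up 9 of 58684 rows. All 9 passed the filter on low counts and were among the 17396 genes tested. The genes were chosen by name, but with earlier measured values of these libraries known, among them the high CPS1 count under the IMPDH1 hairpin. The CPS1 differences that involve those libraries are therefore given as a description, without a test.

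The 9 libraries held polyadenylated RNA of Huh7 cells infected with lentivirus that carried a short hairpin RNA in the vector pLKO.1 and then kept under puromycin as stable cells. A control hairpin defined the group shControl, and hairpins against IMPDH1 and IMPDH2 defined shIMPDH1 and shIMPDH2. These targets are the isozymes of inosine monophosphate dehydrogenase, which commits purines to guanine nucleotides. Each group had 3 libraries, called biological replicates in the series text. The labels give 1 protocol for all libraries and do not describe the control hairpin apart from its name. The labels name neither the hairpin sequences nor how many hairpins were used for a gene, and do not say that replicates came from separate infections, so the tests weigh differences only against the spread within these groups.

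In the hepatocyte, CPS1 joins ammonia and bicarbonate to carbamoyl phosphate inside the mitochondrion, and OTC adds it to ornithine to give citrulline. In the cytosol ASS1 joins citrulline to aspartate, ASL splits the product into arginine and fumarate, and ARG1 cuts arginine to urea and ornithine. SLC25A15 carries ornithine in and citrulline out of the mitochondrion, and SLC25A13 (citrin) exports the aspartate that ASS1 needs. ARG2 is the mitochondrial arginase, found mainly outside the hepatocyte, and is better known for feeding ornithine to proline and polyamines.

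Library totals lay between 44560837 and 58370328 counts, and both targets were lower in their own knockdown without overlap. IMPDH1 was at 62.5 to 62.9 CPM in shControl and at 23.5 to 25.3 CPM in shIMPDH1. IMPDH2 was at 226 to 230 CPM in shControl and at 109 to 110 CPM in shIMPDH2. CPM is the count of a gene relative to the library's total, the total being adjusted by the trimmed mean of M-values (TMM). All 10 hepatocyte markers were above 1 CPM. Their summed level was 36200 to 38400 CPM in shControl, 41900 to 43300 in shIMPDH1 and 43800 to 45000 in shIMPDH2, with AFP and ALB the largest parts. In edgeR's quasi-likelihood test at an adjusted p under 0.05, 6 of the 10 were higher and 1 lower in shIMPDH1. In shIMPDH2, 7 were higher and 3 lower. Over all genes tested, 20.6% were higher and 22.8% lower in shIMPDH1, and 18.6% and 19.9% in shIMPDH2.

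Promoter windows are shown for ARG1, ARG2, OTC and CPS1, which were picked after their changes under the IMPDH1 hairpin were seen. A link between a motif and a change was not tested. The sequences are the 250 bases before a RefSeq gene start, from GRCh38.p14, on the plus strand and in 5′ to 3′ order. Each of the 9 genes had at least 1 window in that table, 12 windows in all. Capitals mark TATAAA in ARG1, TGACGTCA (the cyclic AMP response element) in ARG2 and CAAAGT, read here on the other strand and a core of HNF4 sites, in OTC. In CPS1 nothing is marked. The windows are chr6:131572976-131573225 for ARG1, chr14:67619670-67619919 for ARG2, chrX:38352354-38352603 for OTC and chr2:210477435-210477684 for CPS1.
ARG1: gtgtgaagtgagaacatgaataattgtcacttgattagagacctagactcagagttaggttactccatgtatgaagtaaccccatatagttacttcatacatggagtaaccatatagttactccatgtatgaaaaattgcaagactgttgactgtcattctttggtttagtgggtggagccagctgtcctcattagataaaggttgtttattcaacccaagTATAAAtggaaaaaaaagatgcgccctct
ARG2: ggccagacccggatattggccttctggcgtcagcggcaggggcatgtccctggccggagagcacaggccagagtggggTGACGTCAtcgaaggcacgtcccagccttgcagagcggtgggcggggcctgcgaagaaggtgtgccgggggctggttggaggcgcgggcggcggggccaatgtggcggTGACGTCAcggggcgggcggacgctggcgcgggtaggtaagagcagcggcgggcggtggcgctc
OTC: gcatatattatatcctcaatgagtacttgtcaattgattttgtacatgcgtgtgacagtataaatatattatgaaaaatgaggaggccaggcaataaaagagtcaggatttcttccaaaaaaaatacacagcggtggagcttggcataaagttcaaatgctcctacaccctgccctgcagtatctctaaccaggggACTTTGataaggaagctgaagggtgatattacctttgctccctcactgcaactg
CPS1: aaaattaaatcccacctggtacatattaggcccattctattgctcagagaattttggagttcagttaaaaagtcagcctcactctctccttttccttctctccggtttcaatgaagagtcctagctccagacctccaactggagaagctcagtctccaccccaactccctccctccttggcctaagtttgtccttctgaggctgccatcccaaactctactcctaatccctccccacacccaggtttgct

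The arginase windows differed in motifs and base composition. In ARG2 the TGACGTCA matches began 172 and 64 bases before the start, beside 5 matches to the GC box GGGCGG and 2 to CCAAT, and 72.4% of the window was G or C. The ARG1 window had a TATAAA 29 bases before the start, no GGGCGG, and 37.6% G and C. The RefSeq start and the outermost GENCODE 29 start differ: the RefSeq start lies 82 bases inside the GENCODE gene for ARG1, 122 for ARG2 and 59 for OTC. By that GENCODE start the ARG1 TATAAA, the nearer ARG2 TGACGTCA and the OTC CAAAGT are thus within the gene. For ARG1, GENCODE also has a coding transcript that starts at position 131573225, next to the RefSeq start of 131573226, and the TATAAA lies before it. Distances here are to the RefSeq start. The median over all 35116 windows was 58%. On either strand, TGACGTCA was in 1.65% of all windows, TATAAA in 10.7%, CAAAGT in 10.3%, GGGCGG in 42.6% and CCAAT in 32.0%. Of the 9 genes, ARG2 was the only one with a TGACGTCA and OTC the only one with a CAAAGT, 54 bases before its start. OTC also held a TATAAA farther out, 192 bases before the start, which is not in capitals. CACGTG, the E-box, was in 3 of the genes (the second window of CPS1, ASS1 and SLC25A13) and in 6.34% of all windows. GTTAAT, a half-site of HNF1, and TTGCNNAA, the site of C/EBP factors, were in none of the 12 windows, against 6.23% and 9.05% of all windows. Both strands were searched, and the marked matches overlap no other motif. A match is a run of letters and not a measured binding site.

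CPS1 has several starts. The table holds 3 windows for it, and the printed one is the first along the gene. GENCODE 29 places a further coding transcript at position 210556538. None of the 3 windows lies before that start, so its promoter was not searched for motifs. The counts are summed over the gene and do not tell which start was used.

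**Figure D1:**
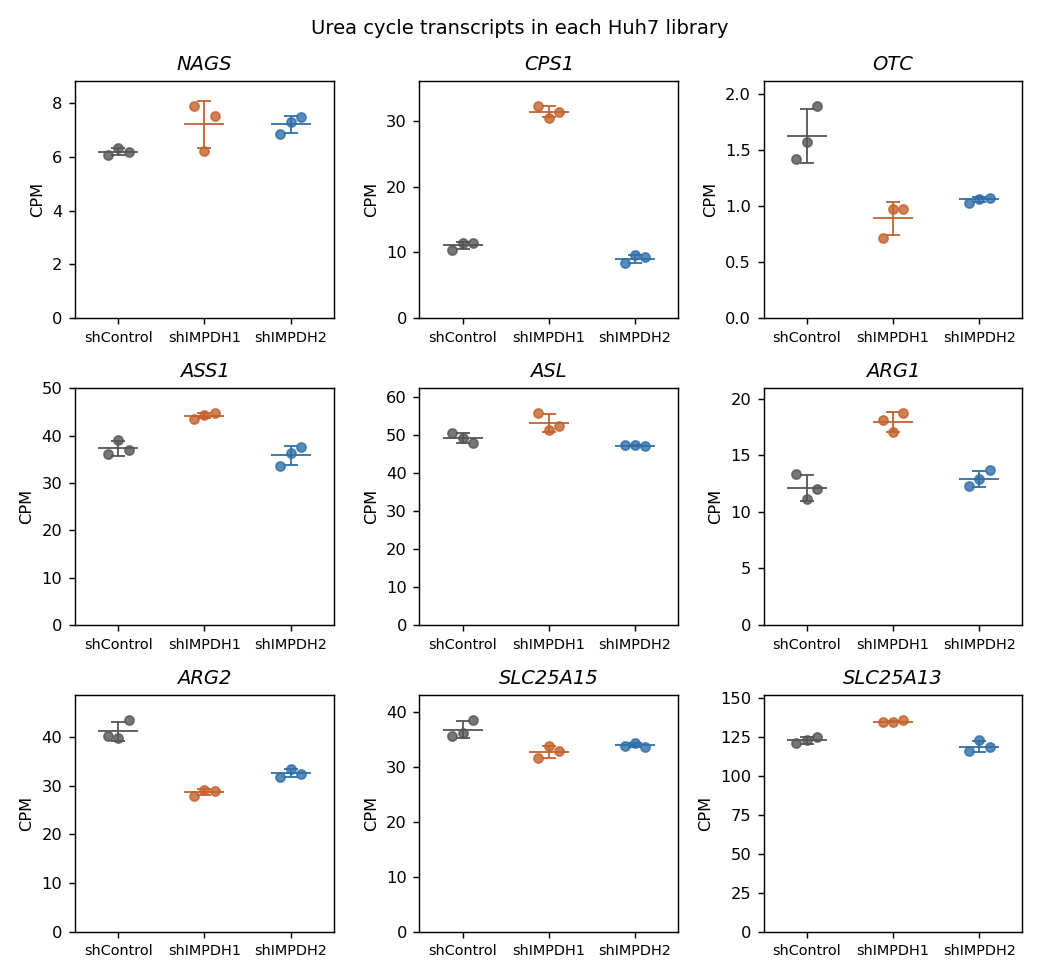
Level of each of the 9 genes in CPM (vertical axes from 0, each panel with its own scale) in the 3 libraries of each group (points), with the mean (bar) and SD (whiskers). CPS1 stands at 30.5 to 32.2 CPM in shIMPDH1 and at or below 11.4 CPM elsewhere, and ARG2 and OTC lie lower in both knockdowns than in shControl.

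Under the IMPDH1 hairpin the 9 genes did not move as a block. CPS1 stood above shControl, without a test. Of the other 8 genes, 5 were higher (ARG1, ASS1, NAGS, SLC25A13 and ASL) and 3 lower (OTC, ARG2 and SLC25A15) at an adjusted p under 0.05 in edgeR's quasi-likelihood test. Over all genes tested, 43.4% were called in this comparison, 20.6% higher and 22.8% lower. The median log2 fold change of the 9 genes was 0.13, and that of all genes 0.00. In 8 of 9 genes the 3 shIMPDH1 libraries lay wholly above or below the 3 shControl libraries, which held for 51.7% of all genes. Since the genes were selected with results of this comparison known, the count is a description only.

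Under the IMPDH2 hairpin the changes were fewer and mostly downward. Against shControl, 4 of 9 genes fell (OTC, ARG2, CPS1 and SLC25A15), NAGS rose and 4 were not called, where 38.4% of all genes were called, 19.9% lower and 18.6% higher. The median was -0.06, and that of all genes 0.01. In 6 of 9 genes the groups did not overlap, against 46.7% of all genes, and 5 of the 6 were lower, against 23.7% of all genes. The number called fell to 3 with DESeq2's Wald test and to between 2 and 5 when 1 library was left out, the lowest without shControl replicate 3. Both comparisons use the same shControl libraries, so their values are set side by side and not treated as independent. Since the genes were chosen with values of both knockdowns known, the counts here are a description only.

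**Figure D2:**
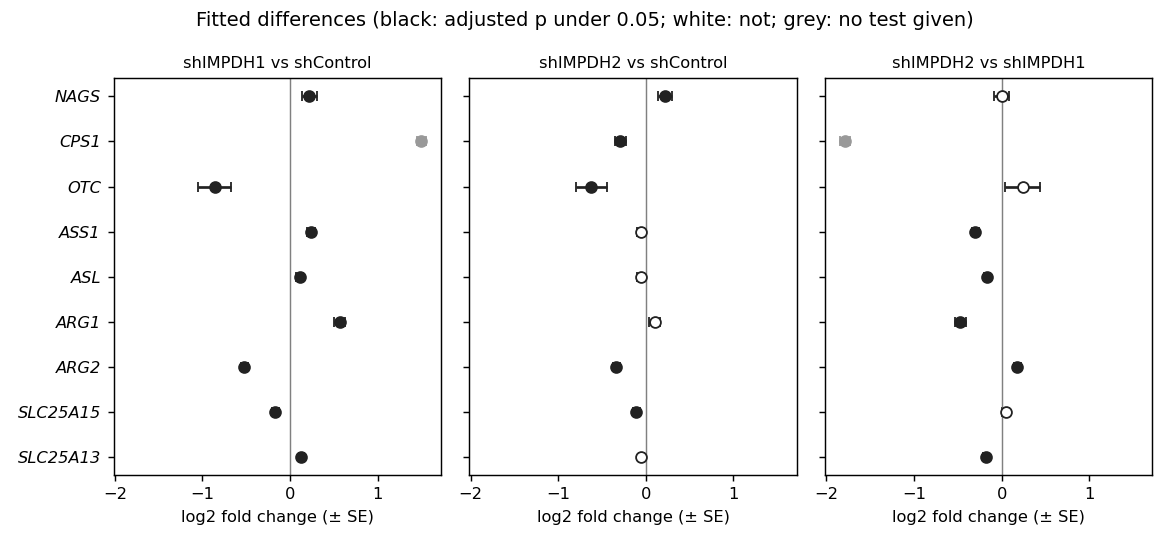
Fitted log2 fold change of each gene with its standard error (whiskers) in the 3 comparisons, the later-named group being the reference. Black points passed an adjusted p of 0.05 in edgeR's quasi-likelihood test, white points did not, and the grey CPS1 points at 1.50 and -1.79 carry no test.

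CPS1 (chromosome 2, positions 210477682 to 210679107, plus strand) had the widest change of the 9 in shIMPDH1. Coordinates here and below are those of GENCODE 29 on GRCh38. The shControl libraries held 523, 659 and 529 counts, or 10.4, 11.4 and 11.4 CPM. The shIMPDH1 libraries held 1432, 1498 and 1586 counts, or 32.2, 30.5 and 31.4 CPM. The shIMPDH2 libraries held 453, 461 and 439 counts, or 8.37, 9.56 and 9.25 CPM. Each shIMPDH1 library was above every other library and each shIMPDH2 library below every shControl library. The log2 fold change in shIMPDH1 was 1.50 (SE 0.053), 2.83-fold, and lay between 1.46 and 1.52 under the alternatives tried. Of all genes tested, 0.960% had a larger change in size. In shIMPDH2 CPS1 fell by 0.29 on the log2 scale (SE 0.062, adjusted p = 0.00045), 1.22-fold. CPS1 was chosen with earlier values of these libraries known, which the adjusted p does not allow for. Here as for the other genes, a change in every cell and a change in the share of cells that make the RNA cannot be told apart in bulk samples.

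NAGS (chromosome 17, positions 44004546 to 44009063, plus strand), the synthase of N-acetylglutamate, was a rare transcript at 6.05, 6.31 and 6.19 CPM in shControl. It stood at 7.87, 6.22 and 7.51 CPM in shIMPDH1 and at 6.86, 7.30 and 7.46 CPM in shIMPDH2. The shIMPDH1 group overlapped shControl through its replicate 2, and the shIMPDH2 libraries were all higher. The log2 fold change was 0.22 in each knockdown (SE 0.083 and adjusted p = 0.0365 in shIMPDH1, SE 0.082 and adjusted p = 0.0377 in shIMPDH2). Neither call was firm. With DESeq2 the adjusted p was 0.0769 and 0.0758. The shIMPDH1 call was also lost without a filter on low counts (0.0544) and without any 1 of shControl replicates 1 (0.0904), 2 (0.0638) and 3 (0.0717) and shIMPDH1 replicates 1 (0.199) and 3 (0.138). The shIMPDH2 call was lost without shControl replicates 1 (0.0951), 2 (0.0546) or 3 (0.0738) and without shIMPDH2 replicates 2 (0.090) or 3 (0.114).

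OTC (chromosome X, positions 38352545 to 38421450, plus strand), which makes citrulline, was the scarcest of the 9 and fell in both knockdowns. Its counts were 71, 91 and 88 in shControl, 32, 48 and 49 in shIMPDH1 and 56, 51 and 51 in shIMPDH2. In CPM these were 1.42, 1.57 and 1.89, then 0.719, 0.979 and 0.971, then 1.03, 1.06 and 1.07. No library of either knockdown reached the lowest shControl library. OTC fell by 0.86 in shIMPDH1 (SE 0.19, adjusted p = 0.00047), 1.81-fold, and by 0.62 in shIMPDH2 (SE 0.18, adjusted p = 0.00769), 1.54-fold. The shIMPDH2 call was lost without shControl replicate 3, the highest library (log2 fold change -0.51, adjusted p = 0.0552). So few counts limit the precision of OTC more than that of any of the other 8 genes, as its SE shows.

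SLC25A15 (chromosome 13, positions 40789412 to 40810111, plus strand), the ornithine and citrulline carrier, fell slightly with OTC. It was at 35.7, 36.3 and 38.6 CPM in shControl, 31.6, 33.8 and 32.9 in shIMPDH1 and 33.9, 34.5 and 33.7 in shIMPDH2. All knockdown libraries were below all shControl libraries. The log2 fold change was -0.17 (SE 0.040, adjusted p = 0.00119) in shIMPDH1 and -0.11 (SE 0.040, adjusted p = 0.0236) in shIMPDH2. The call in shIMPDH2 was lost with DESeq2 (adjusted p = 0.0551) and without shControl replicate 2 (0.0528), shControl replicate 3 (0.151) or shIMPDH2 replicate 3 (0.0693). In shIMPDH1, OTC and this carrier were lower where CPS1 was higher, and in shIMPDH2 all 3 were lower.

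The cytosolic pair that consumes citrulline and aspartate moved little. ASS1 (chromosome 9, positions 130444929 to 130501274, plus strand), argininosuccinate synthase, was at 36.0, 39.0 and 37.0 CPM in shControl, 43.5, 44.3 and 44.7 in shIMPDH1 and 33.6, 36.3 and 37.5 in shIMPDH2. It rose by 0.24 on the log2 scale in shIMPDH1 (SE 0.041, adjusted p = 2.22e-05), 1.18-fold and without overlap. In shIMPDH2 it was at -0.06 (SE 0.042, adjusted p = 0.253), with overlap. ASS1 has many processed pseudogenes that can take or lend reads. Of their rows the best filled, ASS1P2, had 2 to 14 counts in a library, and since the rule for reads with several positions is unknown here, ASS1 levels stay uncertain by what such reads could add.

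ASL (chromosome 7, positions 66075798 to 66093558, plus strand), argininosuccinate lyase, was at 50.5, 49.2 and 47.9 CPM in shControl, 55.8, 51.3 and 52.4 in shIMPDH1 and 47.4, 47.4 and 47.1 in shIMPDH2. The 3 groups did not overlap, but the steps were small. The log2 fold change was 0.11 in shIMPDH1 (SE 0.036, adjusted p = 0.0134) and -0.06 in shIMPDH2 (SE 0.036, adjusted p = 0.222). The call in shIMPDH1 was lost without shControl replicate 3 (0.0712) or shIMPDH1 replicate 1 (0.123). In GENCODE 29, 17.6% of the exon bases of ASL are shared with AC068533.4 on the same strand, and the row of its pseudogene ASLP1 had 16 to 39 counts.

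SLC25A13 (chromosome 7, positions 96120220 to 96322147, minus strand) was at 121, 123 and 125 CPM in shControl, 135, 135 and 136 in shIMPDH1 and 116, 123 and 119 in shIMPDH2. It rose in shIMPDH1 by 0.13 (SE 0.027, adjusted p = 0.000245) and was at -0.05 in shIMPDH2 (SE 0.028, adjusted p = 0.161). The rise was small, 1.10-fold, but the groups did not overlap. Its relative SLC25A12 (aralar), the aspartate carrier of muscle and brain, was scarce. Per exon base SLC25A13 made up 99.2% (SD 0.112, n = 3) of the pair in shControl, 99.4% (SD 0.0596) in shIMPDH1 and 98.7% (SD 0.197) in shIMPDH2.

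The 2 arginases went apart. ARG1 (chromosome 6, positions 131573144 to 131584332, plus strand) was at 13.3, 11.1 and 12 CPM in shControl, 18.1, 17.0 and 18.7 in shIMPDH1 and 12.3, 12.9 and 13.7 in shIMPDH2. All shIMPDH1 libraries were above all others, while shControl and shIMPDH2 overlapped. ARG1 rose by 0.57 in shIMPDH1 (SE 0.063, adjusted p = 3.34e-08), 1.48-fold, and was at 0.10 in shIMPDH2 (SE 0.066, adjusted p = 0.268). ARG1 is also made by myeloid and red blood cells. In these libraries PTPRC, the common leukocyte antigen, had at most 6 counts, S100A8 had 0, and the globin genes HBB and HBA1 had 0. The summed level of 6 myeloid markers was 890 to 939 CPM in shControl, 1310 to 1350 in shIMPDH1 and 865 to 904 in shIMPDH2, nearly all of it LYZ. The other tested markers, CD14 (-0.33, adjusted p = 0.0123) and ITGAM (-1.32, adjusted p = 0.00252), were lower in shIMPDH1, and the part of these genes in the ARG1 result was not tested.

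ARG2 (chromosome 14, positions 67619798 to 67651720, plus strand) was at 40.2, 39.9 and 43.5 CPM in shControl, 28.0, 29.1 and 29 in shIMPDH1 and 31.9, 33.5 and 32.4 in shIMPDH2. The 3 groups did not overlap, with shIMPDH1 lowest and shIMPDH2 between. It fell by 0.52 in shIMPDH1 (SE 0.041, adjusted p = 4.85e-11), 1.43-fold, and by 0.34 in shIMPDH2 (SE 0.040, adjusted p = 1.34e-07), 1.26-fold. Both falls held under each alternative tried, with values of -0.55 to -0.48 and -0.36 to -0.30. In GENCODE 29, 37.4% of the exon bases of ARG2 are shared with VTI1B on the opposite strand, and how featureCounts treated strand is unknown here, so part of the reads can belong to either gene. VTI1B itself rose from 74.4 CPM (SD 2.86, n = 3) in shControl to 82.7 (SD 0.477) and 82.3 CPM (SD 2.14) in shIMPDH1 and shIMPDH2, with log2 fold changes of 0.15 (adjusted p = 0.000303) and 0.14 (adjusted p = 0.000638), opposite to ARG2.

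ARG2 is known from endothelial cells and fibroblasts too. The summed level of 4 endothelial markers was 12.3 to 13.5 CPM in shControl, 5.27 to 6.69 in shIMPDH1 and 6.82 to 8.03 in shIMPDH2, with KDR at 0 and CDH5 and VWF under 1 CPM. Nearly all of it was PECAM1, at 12.7, 5.75 and 7.16 CPM, which was lower in both knockdowns (log2 fold changes of -1.14, adjusted p = 6.35e-12, and -0.83, adjusted p = 1.83e-09). That of 5 fibroblast markers was 90.1 to 92.6, 96.2 to 98.7 and 89.2 to 92.5 CPM, with DCN under 1 CPM and COL1A2 the largest part. COL1A2 was higher in shIMPDH1 (0.26, adjusted p = 3.73e-08), where COL1A1 (-1.22, adjusted p = 3.22e-10) and PDGFRB (-0.64, adjusted p = 1.98e-09) were lower. In shIMPDH2 COL1A1 was higher (0.34, adjusted p = 0.00332) and PDGFRB lower (-0.17, adjusted p = 0.0236). Their part in the ARG2 result was not tested.

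Per exon base, ARG1 made up 29%, 25.5% and 25.3% of the arginase transcripts in shControl. Its share was 44.3%, 41.8% and 44.3% in shIMPDH1 and 32.1%, 32.2% and 34.2% in shIMPDH2. The 3 groups did not overlap, and ARG2 remained the more abundant arginase transcript in each library. With a group mean of 26.6% (SD 2.07) in shControl and 43.4% (SD 1.45) in shIMPDH1, the difference was several times the spread. The share is built from 2 genes already described and was given no test of its own.

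**Figure D3:**
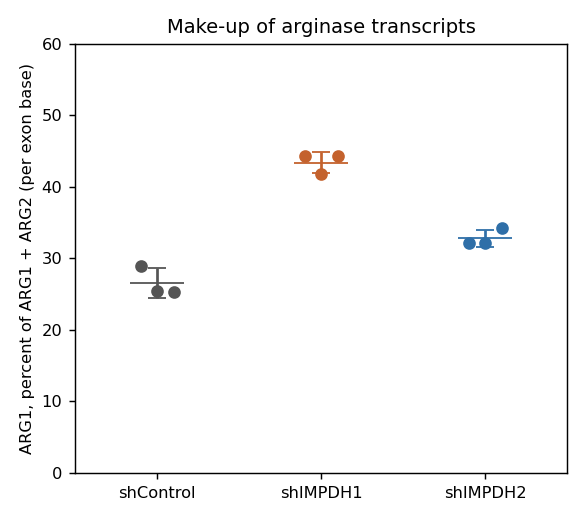
Share of ARG1 in the sum of ARG1 and ARG2, each in CPM per exon base, in percent (vertical axis from 0). Points are libraries, bars the means and whiskers the SD over 3 libraries, with shIMPDH1 at 41.8% to 44.3%, shIMPDH2 at 32.1% to 34.2% and shControl at 25.3% to 29%.

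Between the knockdowns, CPS1 stood lower in shIMPDH2 than in shIMPDH1, without a test. Of the other 8 genes, 4 were lower (ARG1, ASS1, SLC25A13 and ASL), ARG2 was higher and 3 were not called. Since the genes were chosen with values of both knockdowns known, these counts too are a description. Of all genes tested, 44.0% were called, 22.2% lower and 21.7% higher. In 7 of 9 the groups did not overlap (51.5% of all genes), 5 of them lower (26.1% of all genes). The median of the 9 was -0.17, and that of all genes -0.01. CPS1 was lower in shIMPDH2 by 1.79 on the log2 scale (SE 0.055), 3.47-fold. ARG1 was at -0.47 (SE 0.063, adjusted p = 5.92e-07), ASS1 at -0.30 (SE 0.041, adjusted p = 7.56e-07), SLC25A13 at -0.18 (SE 0.028, adjusted p = 3.57e-06) and ASL at -0.17 (SE 0.036, adjusted p = 0.000361). ARG2 was at 0.18 (SE 0.042, adjusted p = 0.000786). These 5 calls held under each alternative tried. OTC (0.24, SE 0.20, adjusted p = 0.363), SLC25A15 (0.05, SE 0.040, adjusted p = 0.313) and NAGS (0.00, SE 0.081, adjusted p = 0.989) did not pass.

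Levels can be compared between genes only per length, here as CPM per kilobase of annotated exon in shControl. SLC25A13 led with 33.2 (SD 0.578, n = 3), followed by SLC25A15 with 20.1 (SD 0.840), ARG2 with 17.0 (SD 0.823), ASL with 15.4 (SD 0.410) and ASS1 with 12.2 (SD 0.504). ARG1 was at 6.17 (SD 0.572) and NAGS at 2.19 (SD 0.0466). At the foot stood CPS1 with 1.03 (SD 0.0504) and OTC with 0.942 (SD 0.140). The ranges of CPS1 and OTC overlapped, at 0.969 to 1.06 and 0.820 to 1.09, and no other neighbours in this order overlapped. With the length of the longest transcript in place of all exons, ASL passed ARG2 (23.0 against 20.1), and CPS1 came to 1.90 but kept its place.

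NAGS, CPS1 and OTC, the mitochondrial enzymes at the entry of the cycle, were thus its 3 scarcest transcripts. In adult liver CPS1 is among the most abundant mitochondrial proteins. That is a protein level in a tissue, whereas only RNA of cultured cells was measured here. In shIMPDH1, CPS1 stood at 2.91 CPM per kilobase (SD 0.0760), above NAGS at 2.55 (SD 0.307), and the ranges of 2.84 to 2.99 and 2.20 to 2.79 did not overlap. Even there CPS1 made up 2.59% (SD 0.0625) of the summed transcripts of the 9 genes, against 0.948% (SD 0.0397) in shControl and 0.830% (SD 0.0385) in shIMPDH2. The sum itself was 108 (SD 1.80), 112 (SD 0.720) and 101 CPM per kilobase (SD 2.26) in shControl, shIMPDH1 and shIMPDH2.

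**Figure D4:**
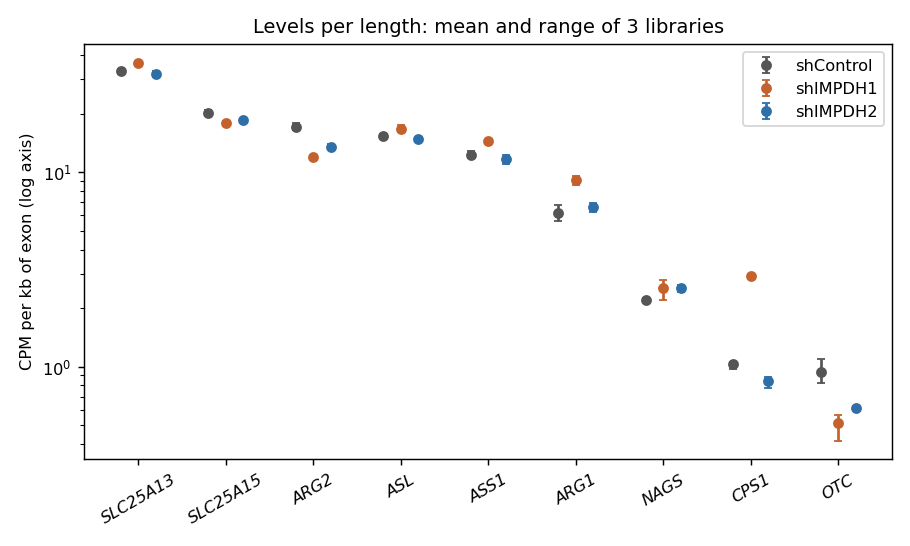
Level of the 9 genes in CPM per kilobase of annotated exon (log axis), as the mean of 3 libraries with whiskers from the lowest to the highest library, in the order of shControl. The mitochondrial carriers lead, from 33.2 for SLC25A13, and CPS1 and OTC stand lowest, at 1.03 and 0.942 in shControl.

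In the liver lobule the cycle belongs to the periportal hepatocytes, and glutamine synthetase, GLUL, to the pericentral ones. Periportal markers other than the 3 cycle genes on that list were near absent: SDS had 0 counts, PCK1 and GLS2 stayed under 1 CPM, and HAL, histidine ammonia lyase, was at 2.36 CPM (SD 0.480, n = 3) in shControl. HAL moved against CPS1, to 1.30 CPM (SD 0.451) in shIMPDH1 (log2 fold change -0.87, adjusted p = 0.000367) and 3.54 CPM (SD 0.295) in shIMPDH2 (0.59, adjusted p = 0.00361). The other tested periportal marker that is not a cycle gene, GLS2, was called in neither knockdown. Among pericentral markers, CYP2E1, CYP1A2 and CYP3A4 also stayed under 1 CPM, and CYP1A2 and CYP3A4 were too low to test. Of 5 pericentral markers tested, 2 were called higher and 0 lower in shIMPDH1, where 20.6% of all genes were higher and 22.8% lower. In shIMPDH2, 1 was higher and 3 lower, where the shares were 18.6% and 19.9%. GLUL was at 522 CPM (SD 13.0) in shControl, 598 (SD 9.13) in shIMPDH1 and 487 (SD 4.07) in shIMPDH2. Its log2 fold changes of 0.20 and -0.10 had the signs of those of CPS1, and so had those of AXIN2, 0.60 and -0.75. RHBG was not called in shIMPDH1 and rose in shIMPDH2 (0.41), against CPS1. OAT was not called in shIMPDH1 and fell in shIMPDH2 (-0.28), and CYP2E1 was called in neither.

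CPS1 and OTC are also genes of the small intestine, and Huh7 showed transcripts of that tissue. The summed level of 8 enterocyte markers was 434 to 438 CPM in shControl, 269 to 274 in shIMPDH1 and 369 to 371 in shIMPDH2. VIL1 was its largest part, at 296, 175 and 323 CPM in these groups. Its log2 fold changes were -0.76 in shIMPDH1 (adjusted p = 3.78e-19) and 0.12 in shIMPDH2 (adjusted p = 0.000154). CDH17 was at 81.3, 54.5 and 20 CPM, and CDX1 and LGALS4 stayed under 1 CPM. Of the 6 tested, 4 were lower and 0 higher in shIMPDH1, against 4 lower and 1 higher in shIMPDH2. Over all genes 22.8% were lower and 20.6% higher in shIMPDH1, and 19.9% and 18.6% in shIMPDH2. Of the defining markers, FABP2 had 0 counts, and the factor CDX2 was at 39.9 CPM (SD 1.66), 31.5 (SD 1.02) and 19.3 CPM (SD 2.23) in the 3 groups. The part of these genes in the CPS1 and OTC values was not tested.

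The level of 5 genes followed that of CPS1 most closely over the 9 libraries, by Pearson's r of log2 CPM among the 11074 genes whose average log2 CPM was 2 or more. They were LGR4 (r = 0.998), LGR5 (0.996), LMAN1 (0.996), TRAPPC2L (0.995) and PHYH (0.995). With 3 groups of 3 libraries, r rests mostly on the 3 group levels, and it is a description. LGR5 was at 32.6, 76.6 and 26.8 CPM in shControl, shIMPDH1 and shIMPDH2, and LGR4 at 182, 217 and 177 CPM. Both are receptors of R-spondins. LMAN1 is a cargo receptor of the early secretory pathway, TRAPPC2L belongs to a vesicle tethering complex, and PHYH is a peroxisomal hydroxylase.

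The substrates of the cycle cross membranes through carriers of cationic amino acids, aspartate and urea. Of 12 such genes, 7 were tested; the urea transporters SLC14A1 and SLC14A2, SLC7A3, SLC25A2 and AQP9 were too low. In shIMPDH1, 2 rose and 3 fell, and in shIMPDH2, 3 rose and 4 fell, where 43.4% and 38.4% of all genes were called. SLC7A7, the light chain of an exporter of arginine and lysine, was at 28.8 CPM in shControl, 12.9 in shIMPDH1 and 10.1 in shIMPDH2. Its log2 fold changes of -1.16 (SE 0.050, adjusted p = 2.29e-16) and -1.51 (SE 0.051, adjusted p = 1.59e-18) exceeded in size those of 8 of the 9 cycle genes in shIMPDH1, all but CPS1, and those of all 9 in shIMPDH2. SLC7A2, a cationic importer, fell by 0.21 and 0.26, and SLC25A29, a mitochondrial carrier of basic amino acids, by 0.27 and 0.31. SLC25A12 rose in shIMPDH2 with 0.59 (adjusted p = 0.00385), from 1.38 to 2.10 CPM.

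Of 16 genes that supply ammonia, glutamine and aspartate, 7 were higher and 3 lower in shIMPDH1, against 6 higher and 3 lower in shIMPDH2. Of all genes, 20.6% were higher and 22.8% lower in shIMPDH1, and 18.6% and 19.9% in shIMPDH2. In shIMPDH1 the glutamine transporter SLC38A5 rose with a log2 fold change of 1.14, AMT of the glycine cleavage system with 0.48 and glutamate dehydrogenase, GLUD1, with 0.44. The mitochondrial carbonic anhydrase CA5B fell by 0.48. In shIMPDH2 SLC38A5 rose with 0.65, GPT with 0.55 and GLUD2 with 0.48, and GLUD1 with 0.08. GLUD2 is a near copy of GLUD1, and their reads can be split between the rows. CA5A, the liver form that gives CPS1 its bicarbonate, was at 0.275, 0.351 and 0.389 CPM in shControl, shIMPDH1 and shIMPDH2 and was not called.

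Ornithine and arginine also feed polyamines, proline and creatine. Of 23 tested genes of those routes (25 on the list), 10 were higher and 5 lower in shIMPDH1, against 8 higher and 7 lower in shIMPDH2. The shares of all genes called were 43.4% and 38.4%. ODC1, ornithine decarboxylase, was at 176, 245 and 151 CPM in shControl, shIMPDH1 and shIMPDH2, so it rose with 0.48 (SE 0.029, adjusted p = 2.58e-13) in one knockdown and fell by 0.22 (SE 0.029, adjusted p = 8.95e-07) in the other. ALDH18A1, the entry of proline synthesis, rose with 0.48 and 0.25. Proline oxidase, PRODH, was a rare transcript that fell by 1.78 in shIMPDH1 and 1.01 in shIMPDH2, from 1.39 CPM to 0.402 and 0.695. PRODH2, the hydroxyproline enzyme, rose in shIMPDH2 with 2.45 (SE 0.24, adjusted p = 5.58e-09), from 0.311 to 1.70 CPM. OAT, ornithine aminotransferase, fell by 0.28 in shIMPDH2.

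**Figure D5:**
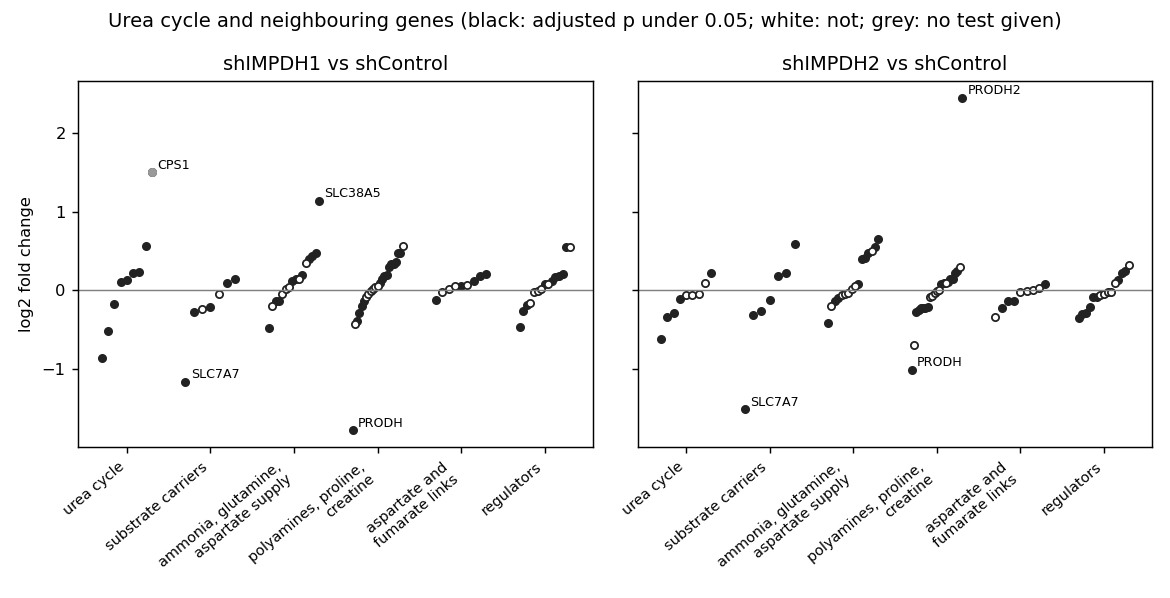
Log2 fold change of each tested gene of the urea cycle and of 5 lists of neighbouring genes, in shIMPDH1 (left) and shIMPDH2 (right) against shControl, ordered by value within a list. Black points passed an adjusted p of 0.05, white ones did not and the grey CPS1 point carries no test. Genes beyond about 1 in size are named, among them SLC7A7 at -1.16 and -1.51.

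Of 9 genes at the aspartate and fumarate links, with the cytosolic carbamoyl phosphate enzyme CAD, 4 were higher and 1 lower in shIMPDH1, against 1 higher and 3 lower in shIMPDH2. Among all genes the shares higher and lower were 20.6% and 22.8% in shIMPDH1, and 18.6% and 19.9% in shIMPDH2. CAD, which starts pyrimidines, rose in shIMPDH1 with 0.21 (SE 0.028, adjusted p = 5.94e-07) and was at -0.02 in shIMPDH2 (adjusted p = 0.718). ADSS, which uses aspartate to make adenylosuccinate, rose with 0.18 and fell by 0.23. FH, fumarase, was at 0.02 (adjusted p = 0.666) and fell by 0.13.

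Of 15 regulators known to act on urea cycle genes or enzymes, 6 were higher and 3 lower in shIMPDH1, against 3 higher and 6 lower in shIMPDH2. Among all genes 43.4% and 38.4% were called, and the difference between the knockdowns was not tested for the list. PPARGC1A, a coactivator of fasting genes, was at 4.33, 6.33 and 3.54 CPM in shControl, shIMPDH1 and shIMPDH2, with log2 fold changes of 0.55 (SE 0.088, adjusted p = 1.03e-05) and -0.29 (SE 0.095, adjusted p = 0.018). SIRT5, the mitochondrial deacylase that acts on the CPS1 protein, fell by 0.46 and 0.35, and FOXA1 by 0.26 and 0.30. HNF4A rose in shIMPDH1 by 0.12 (adjusted p = 0.000112) and fell in shIMPDH2 by 0.08 (adjusted p = 0.00864), and CEBPA was at -0.01 (adjusted p = 0.774) and -0.04 (adjusted p = 0.284). The list medians in shIMPDH1 and shIMPDH2 were -0.21 and -0.12 for carriers, 0.13 and 0.04 for supply, 0.05 and -0.01 for polyamines, proline and creatine, 0.06 and -0.02 for links, and 0.08 and -0.04 for regulators.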

How the data were processed

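The submitters' processing notes name hg38, STAR, featureCounts, cutadapt and Trim Galore, without versions, annotation, strand setting or rule for reads that map to several places. What the authors deposited is raw, unnormalised counts in 1 table of 58684 gene symbols. All 9 columns matched a library.

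The 9 libraries were scaled by TMM, filtered by edgeR's default rule and fitted together by its quasi-likelihood method (edgeR 4.0.16, R 4.3.3), with no covariate besides group. The filter left 17396 genes, with at least 99.9% of each library's counts. Each comparison was a contrast, and p-values were adjusted over all genes tested by the Benjamini-Hochberg method. Every adjusted p in the text is from this test unless another tool is named. The common biological coefficient of variation was 0.0268, so changes of a few percent pass the threshold of 0.05. SE is the log2 fold change divided by the square root of F, and log2 fold changes have the later-named group as reference. The procedure was tested on simulated counts.

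The 9 genes, the lists and the motifs were chosen with earlier results of these data known. The text names the 9 genes, up to 4 called genes of largest change per list and comparison, genes on an edge of the cycle where their level is needed, and the 5 genes closest to CPS1. VTI1B, HNF4A, CEBPA and the single cell type markers were added after their values were seen. Coordinates and exon lengths are from GENCODE 29 (GRCh38, also called hg38), matched by symbol. Replicates of a group differed by 1.80 to 7.00 in mean chi-square per gene, so none was counted as a copy of another library. This value cannot tell whether replicates came from separate infections. Alternatives were DESeq2 1.42.0, its size factors, upper quartile scaling, no filter on low counts, the 6 libraries compared alone, a replicate block, leaving out each library and the length of the longest transcript.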

Additional observations from a re-analysis of the deposited data

How the results depend on the processing

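Over 324 refits of a gene's difference, 300 kept their direction and their side of the threshold, 20 lost the call and 4 changed sign. The 300 include the refits of CPS1 in the comparisons with shIMPDH1, 12 for each, which are a description and no support. The lost calls were those of NAGS, SLC25A15, ASL and OTC given with their values above. The sign changes were all of NAGS between the knockdowns, which was not called and whose value of 0.00 had a range of -0.09 to 0.07 with 1 library left out: -0.02 with upper quartile scaling, -0.09 without shIMPDH1 replicate 2, and -0.01 and -0.02 without shIMPDH2 replicates 2 and 3.

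With DESeq2's Wald test, 3 of the 9 genes were called in shIMPDH2 against shControl and 0 of them higher, against 5 and 1, since NAGS and SLC25A15 lost the call. In the comparisons with shIMPDH1 the counts that follow include CPS1, whose difference there is a description. With 1 library left out, 7 to 9 genes were called in shIMPDH1 against shControl (4 to 6 higher, 3 lower), 2 to 5 in shIMPDH2 against shControl (0 to 1 higher, 2 to 4 lower) and 6 in each case between the knockdowns (1 higher, 5 lower). Over all genes these fits called 6511 to 7160, 5744 to 6228 and 6812 to 7235.

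Deviations of log2 CPM from the group mean were correlated between libraries of different groups, over all genes tested. The r was -0.086 to 0.089 in 9 pairs with the same replicate number, and -0.084 to 0.107 between different numbers. Each gene counts alike in this r, low ones included, so a shared deviation of some genes can go unseen. For OTC, ASS1 and SLC25A13 replicate 1 was the lowest library of each group, which held for none of the other cycle genes. By mean chi-square per gene, replicate 1 stood apart from replicates 2 and 3 within each group. In shControl its values were 5.81 and 7, against 1.94 between replicates 2 and 3. They were 2.26 and 2.42 against 1.8 in shIMPDH1, and 3.84 and 3.94 against 2.1 in shIMPDH2. No batch is labelled, and whether same-numbered libraries were handled together was not tested beyond this r and the replicate block. With the replicate block, 9, 5 and 6 of the 9 genes were called in the 3 comparisons, as without it. Over all genes the block called 7735, 6854 and 7852, against 7552, 6687 and 7648 without it. OTC, with 32 to 91 counts in a library, is the gene whose precision the depth limits most.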
